A study of Homo sapiens with 6 samples.

Results

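The regions of the genome held by the nuclear matrix in untreated H1 human pluripotent stem cells were compared, gene by gene, with those in H1 cells that carried a control hairpin. All regions on the 22 autosomes of the 2 control lists were used, 39526 in the untreated list (hPSC) and 38860 in the hairpin control list (shLUC), together 78386 of the 115751 regions in the 3 lists of the study. Each region was assigned by its centre to the bodies of 19122 autosomal protein-coding genes of the GRCh38 RefSeq table, to 4 classes of gene length and to windows of 1 Mb.

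H1 is an established human embryonic stem cell line, and all samples of all groups were H1 cells grown in mTeSR1 medium on Matrigel. MAR-seq was run on 6 samples, with 2 samples in each of 3 groups. The treatment was none for hPSC, a short hairpin RNA (shRNA) against LUC, the luciferase reporter, for shLUC, and an shRNA against HNRNPU for shHNRNPU. The hairpin vector, its delivery, the time after delivery and whether a line was 1 clone are not given in the sources used here, and with no RNA values in the lists neither the cell type nor the knockdown was checked against markers.

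The nuclear matrix is the network of protein and RNA that stays in a nucleus after soluble material and most DNA have been washed away. Stretches of DNA that stay with it, called matrix or scaffold attachment regions, are thought to anchor chromatin loops and are often found beside genes and at loop borders. HNRNPU, also known as scaffold attachment factor A, is an abundant nuclear protein that binds both RNA and such DNA. In MAR-seq the DNA loosened by restriction enzymes is removed and the DNA retained by the matrix is sequenced.

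Each group was given as 1 list of regions, all 400 bp wide and without height or score, so no value below has a replicate error and no test was made. A difference between the 2 lists describes these lists. The hairpin and whatever else set the lists apart (culture, batch, read depth, region calling) cannot be told apart. The intervals given are exact binomial (Clopper-Pearson) 95% intervals and cover counting error only. The shHNRNPU list is shown beside the others as a list from another hairpin. It is not independent of shLUC, since 27542 of its 35787 autosomal regions had the same coordinates in shLUC, against 2277 in hPSC.

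The lists differed at promoters, and 6 promoter windows show the kinds of gene start that were found. A promoter window is the 300 bp from 250 bases before to 50 bases after the start of a gene. The sequences are RefSeq sequences of GRCh38.p14, printed 5′ to 3′ on the strand of the gene, and were chosen after the values were seen. Capitals mark the sites of 2 of the 6 restriction enzymes used, CCGG for MspI and GGCC for HaeIII. Both motifs read the same on either strand, and they can overlap each other. Of 15100 promoter windows, 76.1% held CCGG and 85.6% held GGCC.

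The following 3 windows held an hPSC region and no shLUC region. HNRNPU itself (chr1:244864494-244864793, minus strand, 67.0% G+C) shared 167 bases with its hPSC region and 11 bases with a shHNRNPU region. H2BC21, a histone H2B gene (chr1:149886633-149886932, minus strand, 45.0% G+C), shared 268 bases with its hPSC region. RPL32, a protein of the large ribosomal subunit (chr3:12841516-12841815, minus strand, 45.0% G+C), shared 266 bases.
HNRNPU: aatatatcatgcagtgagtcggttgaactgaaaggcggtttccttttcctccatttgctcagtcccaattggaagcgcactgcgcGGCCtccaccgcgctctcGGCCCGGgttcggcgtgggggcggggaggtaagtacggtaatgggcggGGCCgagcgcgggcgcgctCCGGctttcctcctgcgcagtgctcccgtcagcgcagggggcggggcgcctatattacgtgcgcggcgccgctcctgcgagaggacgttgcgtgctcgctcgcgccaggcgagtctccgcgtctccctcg
H2BC21: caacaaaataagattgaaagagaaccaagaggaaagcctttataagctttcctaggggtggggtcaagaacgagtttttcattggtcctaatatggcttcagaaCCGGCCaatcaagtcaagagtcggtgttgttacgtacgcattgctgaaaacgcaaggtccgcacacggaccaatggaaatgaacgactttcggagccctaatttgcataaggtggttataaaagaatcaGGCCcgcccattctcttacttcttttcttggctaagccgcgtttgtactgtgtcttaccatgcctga
RPL32: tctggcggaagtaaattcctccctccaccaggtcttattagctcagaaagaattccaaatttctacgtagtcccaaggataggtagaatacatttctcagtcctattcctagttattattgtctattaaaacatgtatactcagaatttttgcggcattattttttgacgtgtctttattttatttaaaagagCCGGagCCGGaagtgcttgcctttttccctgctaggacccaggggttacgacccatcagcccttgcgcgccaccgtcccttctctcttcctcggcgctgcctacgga

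CTCF, the insulator protein that sets loop borders together with cohesin, had a window with a region in both lists (chr16:67562276-67562575, plus strand, 75.3% G+C). The hPSC region covered 147 of its bases and the shLUC region all 300.
CTCF: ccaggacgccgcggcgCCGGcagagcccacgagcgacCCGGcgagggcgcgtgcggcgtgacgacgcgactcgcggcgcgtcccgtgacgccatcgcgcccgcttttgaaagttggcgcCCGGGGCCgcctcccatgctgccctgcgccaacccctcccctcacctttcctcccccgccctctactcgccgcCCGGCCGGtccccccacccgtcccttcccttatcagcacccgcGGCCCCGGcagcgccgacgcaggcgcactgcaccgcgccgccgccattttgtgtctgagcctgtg

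The last 2 windows held a shLUC region and no hPSC region. STAG1, a subunit of cohesin (chr3:136752329-136752628, minus strand, 71.3% G+C), shared 58 bases with a region that had the same coordinates in shLUC and shHNRNPU. AUTS2, a very long gene with a role in neuronal development (chr7:69598225-69598524, plus strand, 82.3% G+C), shared 167 bases with its shLUC region.
STAG1: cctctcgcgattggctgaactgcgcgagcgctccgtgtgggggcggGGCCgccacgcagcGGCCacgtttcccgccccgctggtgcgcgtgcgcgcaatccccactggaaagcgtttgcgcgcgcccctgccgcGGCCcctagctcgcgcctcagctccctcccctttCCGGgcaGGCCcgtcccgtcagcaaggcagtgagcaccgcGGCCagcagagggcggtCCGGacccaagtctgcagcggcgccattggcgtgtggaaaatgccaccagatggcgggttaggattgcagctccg
AUTS2: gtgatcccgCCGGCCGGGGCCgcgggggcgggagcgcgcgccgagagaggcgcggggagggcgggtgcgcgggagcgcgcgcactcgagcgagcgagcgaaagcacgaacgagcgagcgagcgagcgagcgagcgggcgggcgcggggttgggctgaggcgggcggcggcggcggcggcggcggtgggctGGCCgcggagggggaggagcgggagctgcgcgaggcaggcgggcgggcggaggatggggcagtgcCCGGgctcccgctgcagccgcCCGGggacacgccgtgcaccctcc

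Among the windows with an hPSC region alone, H2BC21 and RPL32 held 13 CpG dinucleotides each and HNRNPU 40. Among those with a shLUC region alone, STAG1 held 37 and AUTS2 55, so the examples of both kinds overlapped. They were picked to show the range, and the counts over all promoters follow.

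The first question was how the regions were spread over genes of different length. A region lay outside all protein-coding gene bodies for 47.8% (interval 47.3 to 48.3%) of hPSC regions, against 44.2% (43.7 to 44.7%) of shLUC regions and 43.9% of shHNRNPU regions. Each length class held a smaller share of the hPSC list than of the shLUC list. Genes under 50 kb, which include the histone and most ribosomal protein genes, held 14.2% (13.9 to 14.6%) of hPSC and 14.9% (14.6 to 15.3%) of shLUC regions. Genes of 50 to 200 kb held 19.8% (19.4 to 20.2%) and 21.5% (21.1 to 21.9%), the widest gap among the classes. Genes of 200 to 500 kb held 11.5% (11.2 to 11.9%) and 12.1% (11.8 to 12.4%). For genes over 500 kb, many of which are neuronal genes with very long introns, the shares were 6.58% (6.34 to 6.83%) and 7.30% (7.04 to 7.56%). In all 4 classes the shHNRNPU share lay nearer to shLUC than to hPSC.

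Summed over the autosomes, these totals joined opposite differences near and away from gene ends, where a gene end means either boundary of the gene. Within 1 kb of a gene end, hPSC held 2555 more regions than shLUC, a ratio of 1.51. Farther away the difference of hPSC minus shLUC was -1889 regions, a ratio of 0.944. The split was strongest in genes under 50 kb, with 2766 hPSC and 2050 shLUC regions near gene ends but 2859 and 3748 away from them, ratios of 1.35 and 0.763. Outside gene bodies, within 1 kb of a gene, there were 2793 hPSC and 1265 shLUC regions, a ratio of 2.21, and farther from genes the counts were nearly equal at 16117 and 15906, a ratio of 1.01. In genes over 500 kb few regions lay near an end, 114 in hPSC and 109 in shLUC, and the away counts were 2488 and 2726.

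The direction of the class difference therefore depended on how regions were counted. For genes under 50 kb the hPSC minus shLUC share was -0.689 percentage points by region centre and 0.884 points when any overlap of at least 1 bp counted. For genes of 200 to 500 kb it was -0.561 points, and 0.298 points once regions near gene ends had been left out. In the classes of 50 to 200 kb and over 500 kb the hPSC share stayed lower in every alternative tried for them.

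**Figure D1:**
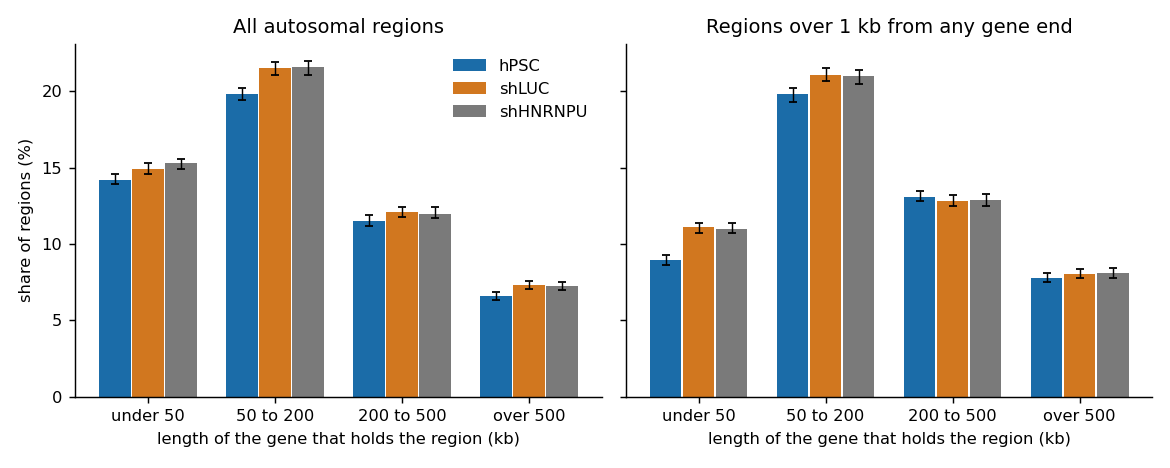
Share of autosomal regions (%) that lay in genes of each length class (kb), for the hPSC, shLUC and shHNRNPU lists, over all regions (left) and over regions more than 1 kb from any gene end (right); bars start at 0 and error bars are exact binomial 95% intervals. On the left hPSC is lowest in each class (14.2% against 14.9% under 50 kb), and on the right its gap to shLUC under 50 kb widens to 8.94% against 11.1%, while from 200 to 500 kb it reads 13.1% against 12.8%.

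Regions near gene ends were shared at a higher rate than those away from them. Between 22.8% and 46.6% of near-end hPSC regions, depending on the class, overlapped a shLUC region, against 9.75% to 12.7% of those away from gene ends. From the shLUC side the ranges were 41.2% to 51.8% near gene ends and 8.58% to 10.3% away. In each class, more than 50% of the near-end hPSC regions had no shLUC region.

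The strand, and so the start of the gene, was known for 15100 genes on 21 autosomes. Most of the excess of hPSC was at the start. Within 1 kb of a gene start lay 14.6% (interval 14.2 to 14.9%) of hPSC regions, 8.96% (8.67 to 9.24%) of shLUC regions and 10.2% (9.90 to 10.5%) of shHNRNPU regions. Within 200 bp the shares were 8.40%, 4.48% and 5.24%. Around the far end of the gene the shares were lower and fewer percentage points apart, with 1.82%, 1.53% and 1.55% within 1 kb. Within 200 bp of the far end lay 0.22% (0.176 to 0.271%) of hPSC, 0.106% (0.0757 to 0.143%) of shLUC and 0.117% of shHNRNPU regions. Few regions lay there, and the hPSC share was again above that of shLUC.

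The profile around gene starts had its peak in the same place in all 3 lists, in the 200 bp just after the start. Its height was 122.0 region centres per 1000 genes in hPSC, 75.8 in shLUC and 82.5 in shHNRNPU. From 2 to 5 kb away the mean per 200 bp was 2.46 in hPSC, 3.35 in shLUC and 2.86 in shHNRNPU. The order of hPSC and shLUC at the start was thus turned around in the flanks. No such peak was seen at far ends, where the highest bins held 7.35, 6.82 and 6.75 centres per 1000 genes. The counts dipped right beside the far end, to 2.78 in hPSC, 1.06 in shLUC and 1.26 in shHNRNPU. From 2 to 5 kb away from the far end the means were 5.18, 5.33 and 4.92, so the dip was shallowest in hPSC.

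**Figure D2:**
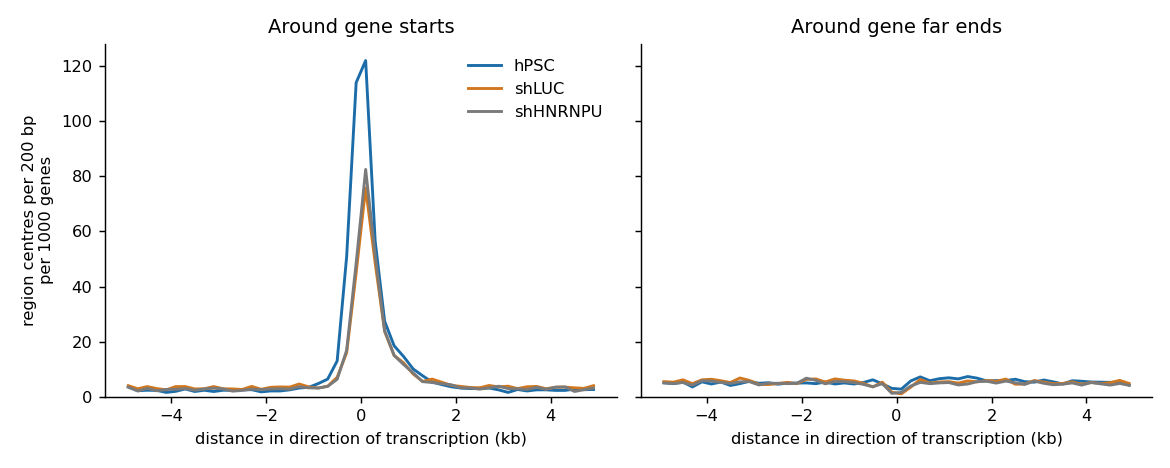
Region centres per 200 bp bin per 1000 genes, plotted against distance in the direction of transcription (kb), around the starts (left) and far ends (right) of 15100 genes, 1 line per list. The peak just after the start reaches 122.0 in hPSC, 82.5 in shHNRNPU and 75.8 in shLUC. No line has a peak at far ends, and all 3 dip there, to 2.78 in hPSC, 1.26 in shHNRNPU and 1.06 in shLUC.

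Gene bodies were also divided along their length into 10 equal parts. In genes of 50 to 200 kb the first part held 24.7% of hPSC and 20.6% of shLUC regions. In genes of 200 to 500 kb the shares were 16.9% and 16.4%, and in genes over 500 kb 13.0% and 12.2%. The difference between the lists was smaller in the longer genes, whose first part reaches far beyond the start.

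A region of at least 1 bp overlap was found in 33.1% (interval 32.3 to 33.8%) of the 15100 promoter windows for hPSC, 4994 windows, and in 16.6% (16.0 to 17.2%) for shLUC, 2511 windows. The shHNRNPU list had one in 17.9%. Both control lists had a region in 1328 windows, hPSC alone in 3666, shLUC alone in 1183 and neither in 8923. Where hPSC alone had a region, shHNRNPU had one in 12.2% (11.2 to 13.3%) of windows. Where shLUC alone had one, shHNRNPU did in 80.7% (78.4 to 82.9%), close to the 74.1% for windows with both. Most promoters of the untreated list were therefore without a region in either hairpin list, and most promoters of the hairpin control were found again in the other hairpin list, with which it shares coordinates.

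The G+C content of the promoter differed between these kinds of window. Windows with an hPSC region alone had a median of 64.0% G+C and 25 CpG dinucleotides, near the 63.0% and 22 of all windows. Windows with a shLUC region alone had 72.3% and 33, windows with both 69.7% and 31, and windows with neither 59.3% and 14. CCGG was present in 90.9% of hPSC-only, 95.4% of shLUC-only, 95.1% of shared and 64.7% of empty windows. GGCC was present in 92.1%, 95.3%, 94.4% and 80.4%. Windows with any region thus held CCGG and GGCC more often than empty ones. The number of CCGG sites per window was 3.07 in hPSC-only, 4.14 in shLUC-only and 2.09 in empty windows. Sites of the enzymes AluI, RsaI and PvuII went the other way. AluI sites were present in 72.9% of hPSC-only, 65.8% of shLUC-only, 70.6% of shared and 74.7% of empty windows. For RsaI the shares were 27.3%, 21.6%, 22.7% and 28.7%, and for PvuII 17.2%, 15.6%, 16.5% and 18.5%. BamHI sites were present in 8.02%, 8.28%, 7.76% and 6.93%. Whether these differences followed the sites or the G+C content was not tested.

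The 15100 windows were then divided by G+C content into 5 equal sets of 3020. In the set with the lowest G+C content (median 43.7%), hPSC had a region in 8.71% (interval 7.73 to 9.77%) of windows and shLUC in 1.19% (0.836 to 1.65%). In the next set (median 56.3%) the shares were 33.8% (32.1 to 35.5%) and 7.22% (6.32 to 8.20%). The middle set (63.0%) gave 41.8% and 14.3%. Over these 3 sets the hPSC share was the higher one throughout.

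The gap closed towards G+C-rich promoters. In the fourth set (median 68.7%) the shares were 44.6% (42.8 to 46.4%) for hPSC and 23.9% (22.4 to 25.5%) for shLUC. In the set with the highest G+C content (76.0%) they were 36.5% (34.8 to 38.3%) and 36.6% (34.8 to 38.3%), and their intervals coincided. The shHNRNPU list ran with shLUC, from 1.85% in the lowest to 40.8% (39.0 to 42.5%) in the highest set, where it lay above both. The base composition of input DNA and of the sequenced libraries was not analysed here, and its part in these differences was not tested.

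**Figure D3:**
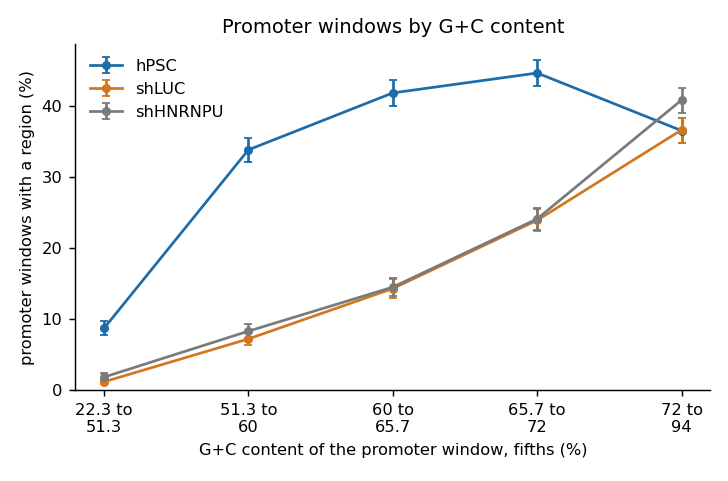
Share of promoter windows with a region (%) in 5 equal sets of 3020 windows by G+C content (range of each set in %, on the horizontal axis), 1 line per list, with exact binomial 95% intervals. The hPSC line is at 33.8% in the second set, where shLUC is at 7.22%, and both meet at 36.5% and 36.6% in the fifth.

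Gene groups were then read at the same promoter windows, beside 33.1% for hPSC and 16.6% for shLUC over all windows and beside the share in all windows of the same G+C sets. Most clustered histone genes encode histones made in S phase. The list was matched by gene symbol, and its starts are A+T-rich (median 43.3% G+C). Of 66 such windows, 29 (43.9%, interval 31.7 to 56.7%) held an hPSC region, against 12.6% of all windows of like G+C content. For shLUC it was 0 of 66 (interval 0 to 5.44%), where the limit of 3 counts that a count of 0 allows is 4.55%, and for shHNRNPU it was 3. Windows of like G+C content gave 2.21% for shLUC. The 29 histone windows held 20 distinct hPSC regions, as neighbouring histone genes can share one.

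Ribosomal protein genes are transcribed strongly in every dividing cell. Of 59 windows, 27 (45.8%, 32.7 to 59.2%) held an hPSC region and 4 (6.78%, 1.88 to 16.5%) a shLUC region, against 33.3% and 11.2% of windows of like G+C content. For zinc finger genes named ZNF, most of which encode KRAB zinc finger repressors in clusters, the counts over 421 windows were 236 (56.1%, 51.2 to 60.9%) for hPSC and 56 (13.3%, 10.2 to 16.9%) for shLUC. Windows of like G+C content gave 36.7% and 15.0%. For histone and ZNF genes the share of like windows thus lay below the interval of the hPSC share. The interval counts each window as separate, so it is too narrow for histone genes, where 29 windows held 20 distinct regions. The hPSC share of ribosomal genes and the shLUC share of all 3 groups lay within counting error of like windows. The shHNRNPU list had regions in 8 ribosomal and 66 ZNF windows.

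Genes of the nuclear matrix and lamina, among them the lamins and cohesin, had an hPSC region in 14 of 19 windows (73.7%, 48.8 to 90.9%) and a shLUC region in 5 (26.3%, 9.15 to 51.2%). Windows of like G+C content gave 38.0%, below the interval for hPSC, and 18.3%, inside the interval for shLUC. The 14 windows held 13 distinct hPSC regions. The 9 gene lists were chosen with earlier results of these data known. No allowance was made for their number, so the intervals describe each list alone. Olfactory receptor genes, largely silent outside the nose, had 2 and 1 of 311 (0.643%, 0.0780 to 2.30%, and 0.322%, 0.00814 to 1.78%), beside 9.77% and 1.55% of like windows.

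The other groups held 16 to 20 windows each, and their shares lay within counting error of like windows. Pluripotency regulators had 6 and 3 of 18 (33.3% and 16.7%, beside 32.5% and 17.3%). Long genes at common fragile sites had 1 of 16 for hPSC (6.25%, beside 29.1%) and 5 of 16 for shLUC (31.2%, beside 14.7%). Neuronal adhesion genes had 5 of 20 in both lists (25.0%, beside 28.6% and 11.5%). HOX genes had 2 and 3 of 20 (10.0% and 15.0%, beside 31.5% and 13.1%).

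**Figure D4:**
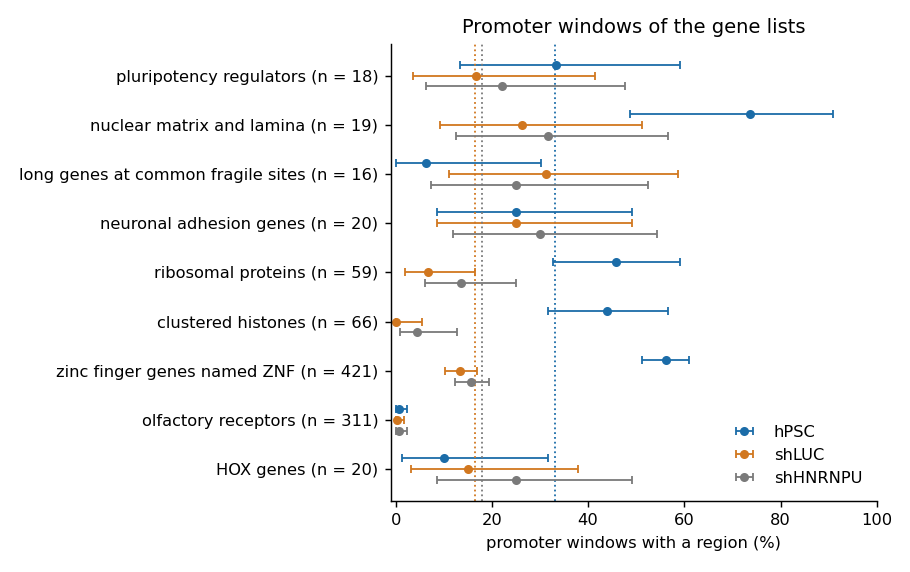
Share of promoter windows with a region (%) in 9 gene lists, with the number of windows (n) in brackets, for hPSC, shLUC and shHNRNPU; error bars are exact binomial 95% intervals and dotted lines the share over all 15100 windows. Histone, ribosomal protein and ZNF genes have hPSC at 43.9%, 45.8% and 56.1% and shLUC at 0, 6.78% and 13.3%.

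The same gene lists were then read across whole gene bodies, beside 21513 hPSC and 22583 shLUC regions summed over all 19122 genes. Ribosomal protein genes held 21 hPSC and 10 shLUC regions in 76 genes, and histone genes 12 and 4 in 72. The 497 ZNF genes held 383 and 365 regions. Among the 18 of them with enough regions for a comparison (6 or more in both lists together) 0 were called, as defined below. Over all genes compared, 2.71% were called hPSC-rich and 4.46% shLUC-rich, so 18 genes are too few to read the 0 as a difference. HOX genes, the homeobox clusters that pattern the body axis, differed in the other direction with 15 hPSC and 27 shLUC regions in 39 genes. A region was present in 12 HOX genes for hPSC, 22 for shLUC and 24 for shHNRNPU. A region inside overlapping genes is counted in each of them, so these sums can exceed the number of distinct regions. HOXA3 and HOXC4, the HOX genes with most regions, held 2 and 3 and 3 and 2.

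Long genes held many regions in both lists. Genes at common fragile sites held 243 hPSC and 277 shLUC regions in 21 genes, with 7 genes higher in hPSC and 12 in shLUC. AUTS2 held 21 hPSC, 21 shLUC and 18 shHNRNPU regions. Neuronal adhesion genes held 222 and 251 regions in 23 genes. Among them TENM3, a teneurin, held 19 hPSC and 24 shLUC regions, and CNTNAP2, a neurexin family member, 21 and 17. Olfactory receptor genes held 25 and 16 regions in 389 genes, of which OR51B5 accounted for 3 and 0.

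Nearly all long genes were marked in both lists, while short genes often were not in either. A region was present in 10044 genes for hPSC and 9913 for shLUC. It was in hPSC alone for 2990 genes and in shLUC alone for 2859. Of these, 2368 and 2276 were under 50 kb, as were 13111 of all 19122 genes. The mean in genes under 50 kb was 0.463 and 0.473 regions per gene. Of 303 genes over 500 kb, 299 had a region in both lists, 4 in shLUC alone and 0 in hPSC alone. The mean there was 8.60 regions per gene in hPSC and 9.38 in shLUC. Of all genes, 4894 held more regions in hPSC, 5189 more in shLUC and 9039 the same number.

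Genes marked mostly in 1 list were looked for among the 2065 genes with at least 6 regions in both lists together. A gene was called hPSC-rich where the hPSC count plus 1 was at least 3 times the shLUC count plus 1, and shLUC-rich in the reverse case. By this rule 56 genes (2.71%) were hPSC-rich and 92 (4.46%) shLUC-rich. Most genes, 1640 (79.4%), lay within a fold of 2, and 344 had equal counts. In 1013 of the 2065 genes (49.1%) no hPSC region overlapped a shLUC region, among them 758 within a fold of 2. Over all 2065 genes 1427 of 10258 hPSC regions (13.9%) did. Among all autosomal hPSC regions sharing was also low away from gene ends, at 9.75% to 12.7% by class. Near gene ends it was 22.8% to 46.6%. The 49.1% is therefore not read as a trait of these genes.

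Many of the calls rest on few regions. Exactly at the fold lay 78 called genes, 66 of them with 5 regions in 1 list and 1 in the other, and a further 277 genes lay at a fold of 2 to under 3. The hPSC-rich genes had a median length of 184 kb and together held 345 hPSC, 51 shLUC and 102 shHNRNPU regions. The shLUC-rich genes had a median length of 143 kb and held 112, 601 and 458. The shHNRNPU count is the one the rule did not use, and it shares coordinates with shLUC. It lay nearer to shLUC than to hPSC in 46 of 56 hPSC-rich and 67 of 92 shLUC-rich genes. The share over all compared genes is not given here, so these counts are not read as a trait of the called genes.

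Of the hPSC-rich genes with the widest difference in counts, 9 are given here. MTA3, a subunit of the NuRD chromatin remodelling complex, held 12 hPSC, 3 shLUC and 7 shHNRNPU regions over 263 kb on chromosome 2. JAKMIP2, a Janus kinase and microtubule interacting protein, held 11, 2 and 4. TMEM108, a transmembrane protein, held 10, 1 and 3. In these genes shHNRNPU lay between the controls. GNG7, a G protein gamma subunit, likewise held 7, 1 and 3 regions.

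In the others the hairpin lists were both nearly empty. BACH2, a transcription repressor of lymphocytes, held 9 hPSC, 2 shLUC and 1 shHNRNPU region. IQGAP2, a scaffold protein of the cytoskeleton, held 8, 1 and 0, and TMCC1, a protein of the endoplasmic reticulum, 8, 1 and 1. CACNA1D, the pore-forming subunit of an L-type calcium channel (GRCh38, chromosome 3, 53494611 to 53813733), held 7 hPSC regions and 0 in either hairpin list. They lay from 31.0 to 254 kb past its start, whereas its promoter window held a shLUC region only, with its centre outside the gene. DMXL2, a regulator of the vacuolar proton pump (chromosome 15, 51447791 to 51622771), likewise held 7, 0 and 0, from 7.14 to 164 kb past its start, with a shLUC region only in its promoter window.

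Among shLUC-rich genes, those with the widest difference, 9 of which are given here, included several very long ones. NRG3, a ligand of the receptor ERBB4, held 5 hPSC, 18 shLUC and 15 shHNRNPU regions over 1110 kb. PRKCE, protein kinase C epsilon, held 5, 17 and 15, and PTPRM, a receptor phosphatase of cell contacts, 4, 14 and 12. The shHNRNPU count followed shLUC in each. A group of 4 genes held 3 hPSC and 11 shLUC regions each: INPP5A, an inositol phosphatase, PLD5, of the phospholipase D family, SGCZ, a sarcoglycan, and TMTC2, a protein of the endoplasmic reticulum. Their shHNRNPU counts were 8, 9, 10 and 7.

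STAG1, the cohesin subunit whose promoter is printed above (chromosome 3, 136336236 to 136752378), held 0 hPSC, 9 shLUC and 7 shHNRNPU regions. The shLUC regions lay from 0.192 to 363 kb past its start. BMPER, a secreted regulator of BMP signalling, held 1, 9 and 7. STAG1 was the 1 called of 4 compared members of the matrix and lamina list, beside 4.46% shLUC-rich over all genes compared, and the 23 genes of that list together held 34 hPSC and 37 shLUC regions. LMNA, which encodes lamins A and C, held 5, 2 and 2 regions.

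**Figure D5:**
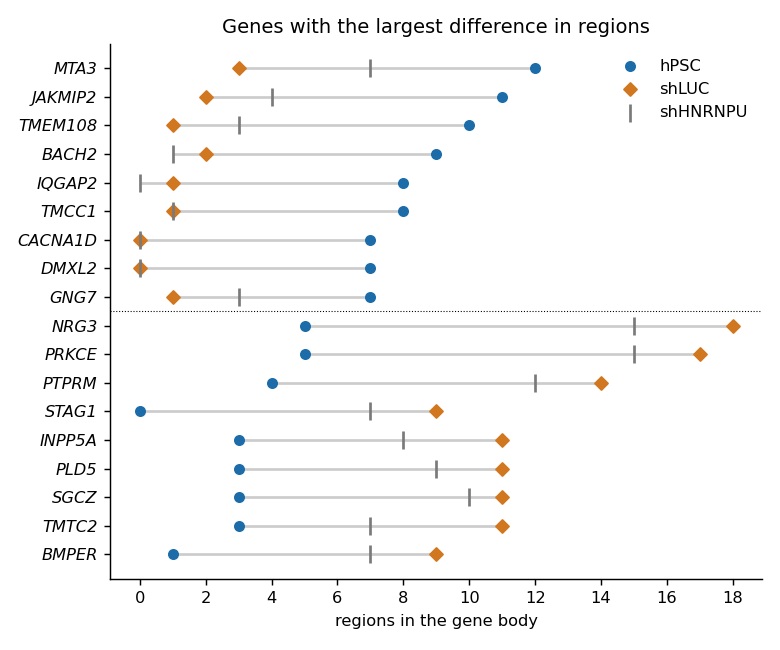
Number of regions in the gene body for 9 hPSC-rich (above the dotted line) and 9 shLUC-rich genes with a wide difference in counts, with circles for hPSC, diamonds for shLUC, grey ticks for shHNRNPU and a grey line over their range. The genes were chosen by the hPSC and shLUC counts, and the shHNRNPU tick lies on the shLUC side in STAG1 (7 against 9 and 0), CACNA1D (0 with 0 against 7) and NRG3 (15 with 18 against 5).

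Pluripotency genes were close between the controls. The 22 matched regulators held 30 hPSC, 30 shLUC and 31 shHNRNPU regions. Among the 3 of them with enough regions, ESRRB, an orphan nuclear receptor, was the 1 called, beside 2.71% hPSC-rich over all genes compared. It held 5 hPSC, 1 shLUC and 3 shHNRNPU regions. JARID2, a partner of the Polycomb complex PRC2, held 13, 8 and 9, and LIN28B, which blocks let-7 processing, 3, 6 and 7. Of the core factors, SOX2 held 1 region in each list, NANOG 1 in hPSC alone and POU5F1 0 in all lists. HNRNPU, the target of the other hairpin, held 1 hPSC, 1 shLUC and 2 shHNRNPU regions. In the neuronal list PCDH9, a protocadherin, was the 1 called of 21 compared, near the 4.46% shLUC-rich over all genes compared, with 1, 6 and 6.

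The genes with most regions were mostly not one-sided. PTPRN2, a receptor phosphatase of secretory granules, held 24 hPSC and 29 shLUC regions, RBFOX1, a neuronal splicing factor, 22 and 24, and DLGAP2, a postsynaptic scaffold protein, 21 and 24. Between 200 and 500 kb, MSI2, an RNA-binding protein, held 16 and 14, RPS6KA2, a ribosomal S6 kinase, 16 and 12, and MAD1L1, a spindle checkpoint protein, 9 and 19. Between 50 and 200 kb, ATP11A, a lipid flippase, held 9 and 12, MACROD1 10 and 10, and PCDHA5, whose body overlaps the other genes of the protocadherin alpha cluster, 8 and 11. Under 50 kb, RAD23B, a DNA repair factor, held 2 and 6, C6orf132 3 and 4 and CCDC69 2 and 5. Among these 12 genes MAD1L1 had the widest difference in counts.

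In windows of 1 Mb the 2 lists were alike in most of the genome. Of 2754 autosomal windows with a region of any list, 2548 held at least 10 regions of both controls together, and 2362 of these (92.7%) lay within a fold of 2 on counts plus 1. By that fold 96 windows (3.77%) were hPSC-rich and 90 (3.53%) shLUC-rich. The hPSC-rich windows held 1522 hPSC, 629 shLUC and 732 shHNRNPU regions, and the shLUC-rich windows 431, 1191 and 1003. The shHNRNPU count was nearer to shLUC in 93 and 72 of them, with no share over all compared windows given here. With regions near gene ends left out, 72 of the 96 and 89 of the 90 were still past the fold.

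The 5 hPSC-rich windows with the widest difference overlapped 10 to 42 protein-coding genes. At chr19:12000001-13000000, with 42 genes of which 15 are ZNF genes, there were 36 hPSC, 14 shLUC and 19 shHNRNPU regions. Away from gene ends the counts of the controls fell to 19 and 13, so most of the difference lay at gene ends. At chr14:24000001-25000000, which holds the proteasome activator genes PSME1 and PSME2, the counts were 35, 17 and 16, and 20 and 11 away from gene ends. At chr16:29000001-30000000, which holds MAZ and TAOK2, they were 29, 13 and 14, and 19 and 12 away.

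In the other two the difference lay mostly away from gene ends. At chr17:45000001-46000000, the window of MAPT, which encodes tau, and CRHR1, there were 33 hPSC, 16 shLUC and 19 shHNRNPU regions, and 29 hPSC and 12 shLUC regions away from gene ends. At chr3:53000001-54000000, the window of CACNA1D, the counts were 28, 12 and 9, and 21 and 9 away.

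Of the 5 shLUC-rich windows with the widest difference, 4 lay within 5 Mb of the end of an autosome. Among all compared windows, 5 of 206 near autosome ends were shLUC-rich, against 85 of 2342 elsewhere, so such calls were not more frequent near ends. At chr20:62000001-63000000, which holds LAMA5, a laminin chain, and COL9A3, a collagen chain, there were 22 hPSC, 52 shLUC and 39 shHNRNPU regions. At chr11:1000001-2000000, with the mucin genes MUC2, MUC5AC and MUC5B, the counts were 18, 44 and 34. At chr14:104000001-105000000, with the kinase gene AKT1, they were 17, 36 and 30, and at chr9:4000001-5000000, with JAK2 and GLIS3, 12, 27 and 22. All 4 kept more shLUC regions away from gene ends, as in the chromosome 11 window with 14 hPSC and 39 shLUC. The window at chr19:22000001-23000000 was unlike them. Its 9 genes are all ZNF genes, and it held 1 hPSC, 18 shLUC and 20 shHNRNPU regions. Windows of chromosome 19 with ZNF genes were thus among those with the widest difference in both directions. In the hPSC-rich one only 15 of 42 genes were ZNF genes, and regions are not given for these alone.

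Over all windows within 5 Mb of an autosome end, hPSC held 4129 and shLUC 4643 regions, a ratio of 0.889, against 1.03 elsewhere. These windows held 6 hPSC-rich and 5 shLUC-rich calls among 206 compared, against 90 and 85 among 2342 elsewhere. The ratio also moved with the number of genes. In windows with 0 gene starts the ratio of hPSC to shLUC regions was 0.866, with 16 hPSC-rich and 31 shLUC-rich calls among 244 compared. Over all 2548 compared windows, 3.77% were hPSC-rich and 3.53% shLUC-rich. The ratio was 1.01 for 1 to 5 gene starts, 1.02 for 6 to 10, 1.05 for 11 to 20 and 1.08 above 20. Above 20 gene starts, 8 windows were hPSC-rich and 2 shLUC-rich among 196 compared. Away from gene ends the order of the ratios was lost, with 0.863, 0.978, 0.945, 0.940 and 0.877.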

How the data were processed

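The authors deposited 1 list of regions per group, each line giving the chromosome, start and end of a region and a score of 0, so the values used here are positions. The submitters' processing notes name cutadapt, Bowtie2, SAMtools, MACS2, deepTools and the build hg38. Versions, calling thresholds, the use of input and how 2 samples became 1 list are not given in the sources used here. The paper supplied with the series describes other experiments, and no method was taken from it. Read depth is unknown.

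Region centres were counted in gene bodies (RefSeq, GRCh38.p14). The class is that of the longest gene holding the centre. Of 23 pluripotency entries, 22 matched a gene. RefSeq promoter windows matched 15100 of 19122 genes by gene ID, on 21 autosomes. Counts plus 1 gave folds. Named genes were the 10 calls per direction with the widest difference, the 3 genes per class and 2 genes per list with most regions, called list members, 4 fixed genes (HNRNPU, POU5F1, SOX2, NANOG), and 5 windows per direction. Of these genes, 3 are not reported here. Genes, lists and rules were chosen with earlier results of these data known. Promoter comparisons and shHNRNPU in place of shLUC were added after the data were seen.

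Counting was tested on simulated data. Scripts ran in Python 3.11.15 (matplotlib 3.10.9, numpy 2.4.6, scipy 1.17.1, pandas 2.3.3).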

Additional observations from a re-analysis of the deposited data

How the results depend on the processing

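Of 63 recomputed values, 34 stayed within 1.5 times the count or within the interval of the main value, 27 moved and 2 reversed. The 56 hPSC-rich and 92 shLUC-rich genes became 26 and 48 with counts scaled to equal list length. Of these genes, 66 held 5 regions against 1, on the limits of both the fold and the 6 regions needed. Others held 6 against 0, on the limit of the regions needed, so scaling removes such calls by construction. The 56 and 92 genes became 168 and 257 at a fold of 2, 18 and 17 at a fold of 4, and 5 and 18 with at least 10 regions. With shHNRNPU in place of shLUC, 37 genes were called in the shLUC-rich direction. The 96 hPSC-rich and 90 shLUC-rich windows became 12 and 26 in 2 Mb windows, 269 and 191 in 500 kb windows, 5 and 19 at a fold of 3, and 50 and 24 with at least 20 regions. Leaving out regions near gene ends gave 157 shLUC-rich windows.

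The hPSC minus shLUC share for genes under 50 kb reversed from -0.689 to 0.884 percentage points with any overlap, and was -2.13 without regions near gene ends. For 50 to 200 kb it moved from -1.69 to -0.965 with any overlap. Without regions near gene ends it reversed from -0.561 to 0.298 for 200 to 500 kb, and was -0.269 against -0.712 over 500 kb. Near gene ends the difference of 6.25 points became 4.02 within 5 kb and 4.55 within 200 bp. At promoters 16.4 points became 14.5 with all windows of the table, 13.0 with an overlap of at least 150 bp, 10.6 with the region centre inside the window and 15.2 with shHNRNPU in place of shLUC. The cause of these moves was not tested.

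No paired analysis was possible because a single list stands for the samples of a group and its columns carry no replicate numbers. For the same reason no replicate was left out. With unknown depth, a gene without a region is one where none was listed.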
